A study of Mus musculus with 6 samples.

Results

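The wound carrying stabilized β-catenin was set against its adenovirus-GFP control across every gene that both arrays detected. The members are the 9207 genes with a probe of 1 annotated gene at a detection p-value under 0.01 on both arrays, out of 19057 genes with such a probe on the platform. Both mice were 2 months old, of the C57/BL6 background and homozygous for a β-catenin allele with loxP-flanked exon 3 (β-Catenin flox/flox), so the control carried the allele too. One received adenovirus-GFP, labelled wild-type for β-catenin, and the other adenovirus-CRE, labelled stabilized. The dorsal full thickness skin wounds were taken 8 days after injury, and total RNA of the whole wound was measured on 1 array for each condition. The promoter that drives the recombinase, the cells it reached, the time of infection and whether a sample pools animals are not given in the sources used here. The other 4 arrays of the series served as a yardstick. They were wounds of the same background and day from tamoxifen-treated mice with loxP-flanked β-catenin exons 2-6, namely 2 controls without Cre at 4 months and 2 knockdown wounds that carried Cre-Esr1 at 5 months. The adenovirus and tamoxifen wounds therefore differed in age, allele and agent together.

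β-Catenin joins cadherins to the actin skeleton at cell contacts and, when Wnt ligands switch off the complex that degrades it, enters the nucleus and activates genes with TCF/LEF factors. The stretch encoded by exon 3 holds the residues whose phosphorylation marks the protein for degradation, so its removal by Cre leaves a protein that escapes degradation. In healing skin the protein is known for its activity in dermal fibroblasts during the proliferative phase, when new matrix is laid down. The change in the allele acts on the stability of the protein, and the level of its mRNA need not change.

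With 1 array on each side there was no test, and the differences describe these 2 wounds. Levels are log2 normalized intensities, differences are stabilized minus GFP on that scale, each gene is read by its brightest detected probe, and a gene was counted as different when it was at least 2-fold apart. The GFP array had the lowest mean intensity of the 6 arrays (544.4, against 648.7 to 714.8), and 15883 of its probes were detected against 16288 to 16681 elsewhere. The tissue label was matched on both arrays by skin markers, with 28 of 30 epidermal differentiation genes and 18 of 19 fibroblast markers detected on each. Xist was detected on both arrays at 9.17 and 9.60, while no Y-linked gene of the list passed on both.

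Of the 9207 genes, 507 were at least 2-fold apart (5.51%). The stabilized wound was higher in 195 (2.12%) and lower in 312 (3.39%). Replicate tamoxifen controls were this far apart in 214 of 9490 genes (2.26%) and replicate knockdown wounds in 84 of 9598 (0.875%). Of the genes 2-fold apart here, 479 (5.2% of all genes) were further apart than both replicate pairs, 179 of the 195 higher and 300 of the 312 lower. The split rests on the scaling: the arrays were forced to one distribution by quantile normalization, which put the median of all genes at 0.03, and when the arrays were only centred on their medians that median moved to 0.58 and the counts became 1270 higher and 151 lower. The share of higher genes among those 2-fold apart was then 89.4% in place of 38.5%. All differences below therefore rest on the quantile step, which makes the arrays share 1 distribution, unless another scaling is named.

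**Figure D1:**
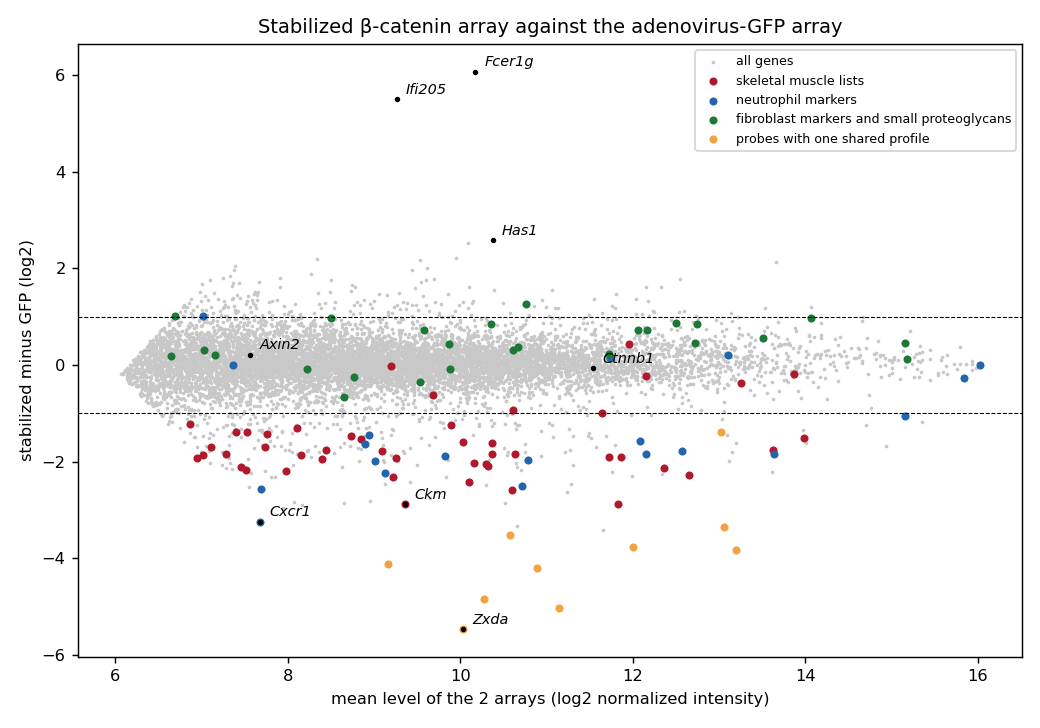
Difference between the stabilized and the GFP array (vertical axis, log2) against the mean level of both arrays (horizontal axis, log2 normalized intensity) for 9207 genes, 1 point a gene, with dashed lines at 2-fold. Muscle genes (red) and neutrophil markers (blue) lie mostly below the lower line, Fcer1g and Ifi205 stand alone at 6.06 and 5.50, and Ctnnb1 and Axin2 lie near 0.

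The gene for β-catenin itself differed little by its brighter probes. The brightest of its 4 detected probes read 11.58 for GFP and 11.50 for stabilized, against 11.74 to 12.09 on the tamoxifen arrays. The next brightest probe differed by -0.03, and the dimmer pair differed by -0.70 and -0.82. Where these probes lie relative to exon 3 is not known here, so they check neither the recombination nor the label.

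Textbook Wnt target genes did not separate the wounds. Of 17 measured targets, 0 were 2-fold apart (5.51% of all genes), a share at which so short a list would hold few such genes. Of the targets, 10 lay above 0 (as did 53.2% of all genes) and 7 below. Their median difference of 0.11 compares with 0.03 over all genes and with 0.31 and -0.29 between the tamoxifen replicates. Axin2, the scaffold of the degradation complex and its best known feedback target, read 7.46 in the GFP and 7.67 in the stabilized wound, and 8.06 to 8.61 in the tamoxifen wounds. Both adenovirus wounds were thus below all 4 tamoxifen wounds, and close to each other. Myc, the growth-promoting transcription factor, had the highest difference (6.38 against 6.96), followed by Ccnd1, the gene of cyclin D1 (11.44 against 11.91). Bmp4, a morphogen of the BMP family, had the lowest (8.11 against 7.26), followed by the receptor gene Tnfrsf19 (7.62 against 7.12) and Vegfa (11.07 against 10.69), the endothelial growth factor. These 3 lay on the lower side although they are listed as targets. The R-spondin receptor Lgr5 (0.11), the Wnt inhibitors Apcdd1 (0.11), Nkd2 (-0.08), Wif1 (-0.24) and Dkk3 (0.16), the matricellular genes Ccn4 (-0.21) and Ccn5 (0.23), the hyaluronan receptor Cd44 (0.19) and the transcription factors Jun (0.27), Twist1 (0.27) and Tbx3 (-0.03) made up the rest. Other detected probes gave 0.78 for Ccn4, 0.29 for Tbx3 and -0.01 for Dkk3, each of the opposite sign. For Cd44 they ran from -0.69 to 0.65. For Ccnd1 they gave 0.41 and 0.18 and for Vegfa -0.02, with the sign of the brightest probe.

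The machinery around β-catenin moved little. None of 13 catenins and cadherins was 2-fold apart (5.51% of all genes). Cdh1, the epithelial cadherin, was lowest at -0.57 and Ctnnd1, p120 catenin, highest at 0.48. Among the 16 genes of the degradation complex and the nuclear partners, Tcf7l1, a TCF factor known mainly as a repressor, was 2-fold higher (9.22 against 10.29). Its level in the stabilized wound lay just above the tamoxifen range of 9.83 to 10.10, and the GFP wound lay below it. Apc, a scaffold of the degradation complex, differed by 0.93, Tcf7l2 by 0.74, Bcl9 by 0.62 and Gsk3b by 0.56. Among 26 ligands, receptors and antagonists, the secreted antagonist Sfrp4 was 2.82-fold higher (6.39 against 7.89, tamoxifen wounds 5.27 to 6.24). The ligand gene Wnt16 differed by 0.94 and Wnt2 by 0.67, while Wnt5b differed by -0.70 and the receptor Fzd10 by -0.72.

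**Figure D2:**
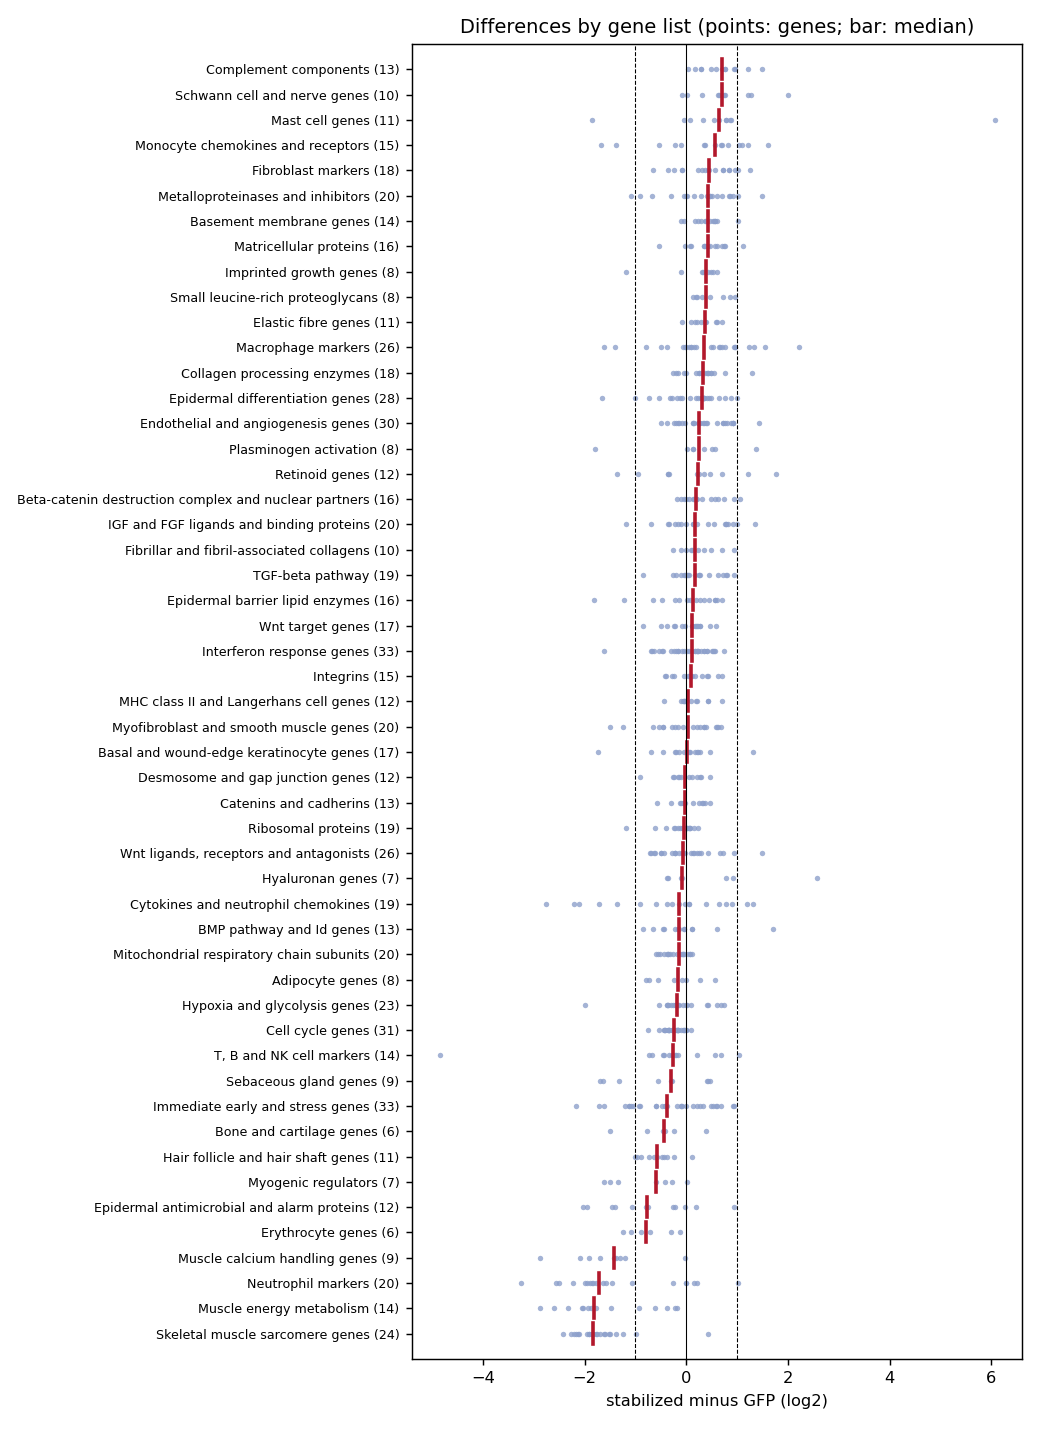
Differences of single genes (points) in each gene list with at least 5 measured genes, with the number measured in parentheses and the list median as a red bar, and the difference between stabilized and GFP wounds (log2) on the horizontal axis. Sarcomere genes, muscle energy genes and neutrophil markers have the lowest medians (-1.84, -1.82 and -1.71), complement and Schwann cell genes the highest (both 0.69).

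Skeletal muscle genes formed the most uniform group on the lower side. In 3 lists, for the sarcomere, for calcium handling and for energy metabolism, 39 of 47 measured genes were at least 2-fold lower in the stabilized wound and 0 were 2-fold higher, and the median was -1.77. Tcap, which anchors titin at the Z-disc, read 11.30 in the GFP wound and 8.88 in the stabilized wound, with tamoxifen wounds at 10.58 to 12.58. The fast light chain gene Mylpf read 13.78 and 11.51 (tamoxifen wounds 13.33 to 15.04), and Tnnc2, fast troponin C, read 13.42 and 11.29 (12.87 to 14.77). In each of these the GFP wound lay inside the tamoxifen range and the stabilized wound below it. Myom2, Myoz1 and Myoz2, which encode M-band and Z-disc proteins, were 4.60-fold, 4.51-fold and 4.33-fold lower. Of the 24 sarcomere genes, 22 were 2-fold lower. The exceptions, named because they are the exceptions, were Myh8 at -0.99 and Tpm3, a tropomyosin also made outside muscle, at 0.43.

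Calcium handling and fuel supply followed the sarcomere. Pvalb, the calcium buffer of fast fibres, read 13.27 and 10.40 (tamoxifen wounds 12.52 to 14.30) and was 7.31-fold lower. Atp2a1, the calcium pump of the sarcoplasmic reticulum, read 12.82 and 10.90, and its inhibitor Sln read 11.37 and 9.28. Ckm, muscle creatine kinase, read 10.80 and 7.92 (tamoxifen wounds 10.16 to 12.56) and was 7.35-fold lower. Both Pvalb and Ckm were lower than on any other array. Mb, myoglobin, was 6.03-fold lower, the muscle cytochrome oxidase subunits Cox8b and Cox6a2 were 4.98-fold and 4.11-fold lower, and the muscle enolase Eno3 was 4.08-fold lower. Subunits of the respiratory chain that all tissues use differed far less, with 0 of 20 genes 2-fold apart (5.51% of all genes) and a median of -0.15. Of 7 measured myogenic regulators and membrane genes, 3 were 2-fold lower: Chrna1, the muscle acetylcholine receptor subunit (3.05-fold), and the transcription factors Myog (2.84-fold) and Myf6 (2.52-fold). Rpl3l, a ribosomal protein gene known from striated muscle, was 7.73-fold lower, which was among the 25 lowest genes.

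Muscle RNA also varied among the other wounds. The median of the 24 sarcomere genes, relative to the mean of each gene over 6 arrays, was 0.08 in the GFP wound, -1.67 in the stabilized wound, -0.53 and 0.09 for the tamoxifen controls and 0.75 and 1.33 for the knockdown wounds. Replicate controls were 0.65 apart and replicate knockdown wounds 0.54 apart in list median, so the step of -1.84 was larger than either. Across both tamoxifen groups, however, the level ran from -0.53 to 1.33, a span about as wide as that step. The summed normalized intensity of the list was 108778 in the GFP wound, 35969 in the stabilized wound and 75750 to 235594 on the tamoxifen arrays. In RNA of a whole wound, fewer muscle cells and less RNA per cell cannot be told apart, and the sources used here do not give the depth of each biopsy.

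The start regions of 3 of the lowest muscle genes are printed because they share the E-box CAGCTG, one form of the site bound by the myogenic factors MyoD and myogenin. The letters are the RefSeq windows around the annotated start, most of each lying upstream of it (GRCm38.p6), in the direction of transcription, at chr7:19410844-19411143 (plus strand) for Ckm, chr7:140900397-140900696 (minus strand) for Cox8b and chr7:127211358-127211657 (plus strand) for Mylpf. Capitals mark each CAGCTG, which reads the same on both strands.
Ckm: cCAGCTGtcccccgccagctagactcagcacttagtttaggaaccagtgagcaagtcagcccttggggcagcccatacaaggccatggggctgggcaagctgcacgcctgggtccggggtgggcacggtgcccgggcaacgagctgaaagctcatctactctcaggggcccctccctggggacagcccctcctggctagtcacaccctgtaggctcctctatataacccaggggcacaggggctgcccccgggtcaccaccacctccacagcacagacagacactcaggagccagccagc
Cox8b: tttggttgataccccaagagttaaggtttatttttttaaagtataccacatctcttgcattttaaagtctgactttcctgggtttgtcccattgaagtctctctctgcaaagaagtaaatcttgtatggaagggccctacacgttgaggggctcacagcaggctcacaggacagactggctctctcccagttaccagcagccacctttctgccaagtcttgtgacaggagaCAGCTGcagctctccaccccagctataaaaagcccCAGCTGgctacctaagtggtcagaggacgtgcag
Mylpf: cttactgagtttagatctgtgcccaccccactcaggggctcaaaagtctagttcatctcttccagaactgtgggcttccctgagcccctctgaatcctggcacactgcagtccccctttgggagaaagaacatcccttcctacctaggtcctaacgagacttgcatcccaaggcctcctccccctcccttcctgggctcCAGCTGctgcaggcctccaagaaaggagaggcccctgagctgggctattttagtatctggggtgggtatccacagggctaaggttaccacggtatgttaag
Among the 39 muscle genes that were 2-fold lower, 27 had such a window and 13 of these held CAGCTG (48.1%). The share was 14.7% of the 7441 measured genes with a window, 24.7% of all genes 2-fold lower and 22.6% of those 2-fold higher. The TCF/LEF core CTTTGAT, searched on both strands, was held by 2.19% of the genes 2-fold higher, 2.43% of those 2-fold lower, 2.63% of measured genes and 0 of the 9 measured Wnt targets with a window. These matches describe letters in a short window, and binding was not measured.

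Neutrophil markers were the other large group on the lower side, and here the GFP wound was the high one. Of 20 measured markers, 14 were 2-fold lower in the stabilized wound, 1 was 2-fold higher, and the median was -1.71. Cxcr1, a receptor for neutrophil-attracting chemokines, read 9.30 on the GFP and 6.06 on the stabilized array (tamoxifen wounds 7.83 to 8.62). Its level was the highest of the 6 arrays in the GFP wound and the lowest in the stabilized wound. Il1r2, the interleukin-1 decoy receptor, read 11.96 and 9.46 (10.58 to 11.23), Ltf, the granule protein lactotransferrin, read 8.97 and 6.41 (7.28 to 8.40), and Trem1, an activating receptor of myeloid cells, read 10.23 and 8.01 (7.84 to 8.91). Csf3r, the receptor for granulocyte colony-stimulating factor, was 3.99-fold lower and Lcn2, a granule protein that keratinocytes also make, was 3.89-fold lower. S100a9, one of the most abundant neutrophil proteins, was 2.09-fold lower. The 1 higher member was Itgam, the integrin subunit shared by myeloid cells, at 1.01 and named as the exception. The GFP wound lay above the tamoxifen range in 17 of the 20 genes (27.0% of all genes). The stabilized wound lay below it in 10 (29.2% of all genes) and above it in 5. Relative to each gene's mean over 6 arrays, the list median was 1.10 in the GFP wound, -0.52 in the stabilized wound and -0.25 to 0.09 in the tamoxifen wounds, and the replicates were 0.21 and 0.12 apart.

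Acute inflammatory genes divided. Tnf, the early proinflammatory cytokine, read 11.03 and 8.27 (tamoxifen wounds 10.13 to 10.70) and was 6.74-fold lower in the stabilized wound. Cxcl2, a neutrophil chemokine, was 4.63-fold lower, Il1rn, the interleukin-1 receptor antagonist, 4.31-fold lower, Osm, oncostatin M, 3.26-fold lower and Il1b 2.56-fold lower. For Il1b the GFP wound stood apart, at 14.64, while the stabilized wound (13.29) lay inside the tamoxifen range of 13.06 to 13.61. Il24, a cytokine of the interleukin-10 family, ran the other way (9.37 against 10.68, tamoxifen wounds 6.76 to 8.13), with both adenovirus wounds above the rest. Of 19 cytokines and neutrophil chemokines, 5 were 2-fold lower and 2 were 2-fold higher. The GFP wound lay above the tamoxifen range in 16 of the 19 (27.0% of all genes). The stabilized wound lay above it in 9 (32.8%) and below it in 6 (29.2%). Acod1, which makes itaconate in activated macrophages, was 10.7-fold lower (13.36 against 9.94, tamoxifen wounds 11.63 to 12.54), Slc7a11, the cystine transporter, 6.22-fold, Nfkbid, a nuclear inhibitor of the NF-κB family, 5.57-fold, and Arg2, the mitochondrial arginase, 7.23-fold. In Acod1 and Arg2 the GFP wound was above and the stabilized wound below every tamoxifen wound. Of 33 immediate early and stress genes, 8 were 2-fold lower and 0 were 2-fold higher, with a median of -0.39 (0.19 without the quantile step, against 0.58 over all genes). Here too the GFP wound was often the high one, above the tamoxifen range in 20 of the 33. The stabilized wound lay below that range in 11 and above it in 9. Gadd45b, a stress-induced gene, was 4.52-fold lower, the transcription factor Atf3 3.31-fold, Ier3 3.08-fold and the phosphatases Dusp5 and Dusp1 2.19-fold and 2.17-fold.

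Macrophage genes did not follow the neutrophils. Of 26 markers, 4 were 2-fold higher, 2 were 2-fold lower, and the median was 0.34. Replicate tamoxifen controls differed by -0.45 in that median and replicate knockdown wounds by 0.05, so the step lay within the replicate spread. The 4 higher genes are known from alternatively activated or tissue-resident macrophages. Retnla read 8.85 on the GFP and 11.06 on the stabilized array (tamoxifen wounds 8.75 to 11.37), the lectin Mgl2 read 9.61 and 11.17 (11.17 to 11.91), the scavenger receptor Cd163 8.33 and 9.67 (8.72 to 10.70) and the mannose receptor Mrc1 11.14 and 12.36 (11.72 to 12.27). In Mgl2, Cd163 and Mrc1 the GFP wound lay below all the others, and in Retnla it lay near the lower end. For Retnla the replicate knockdown wounds alone read 8.75 and 11.02. Cd209f, a C-type lectin gene, was 4.52-fold higher (tamoxifen wounds 9.31 to 11.67). On the other side stood the lipopolysaccharide co-receptor Cd14 (3.08-fold lower) and the chitinase-like Chil3 (2.65-fold lower). Chil3 is also known from alternatively activated macrophages, so genes of that kind did not all run one way. Nos2, a gene of classical activation in the same list, was detected on the stabilized array only and was at least 3.79-fold higher.

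Chemokines for monocytes and eosinophils were split by gene: of 15 genes of that list, receptors included, 4 were 2-fold higher, 2 were 2-fold lower, and the median was 0.56. Ccl7 was 3.04-fold higher (11.53 against 13.13, tamoxifen wounds 11.20 to 11.97), Ccl24 2.33-fold, Ccl11, eotaxin, 2.12-fold and Ccl2 2.05-fold higher. In each of these 4 the stabilized wound was the highest of the 6. Ccl4 and Ccl3 were 3.21-fold and 2.61-fold lower, although the probe for Ccl3 has the shared profile described further on. Complement genes all lay on the higher side: 13 of 13 differed by more than 0 (53.2% of all genes), 2 were 2-fold higher (2.12%), and the median was 0.69. C1s1, a protease of the first complement component, read 8.54 and 10.03 (tamoxifen wounds up to 9.48), and Serping1, its inhibitor, read 13.46 and 14.67 (12.90 to 13.46). C1qb and C1qc, which macrophages make, differed by 0.95 and 0.93, with GFP the lowest array in both.

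**Figure D3:**
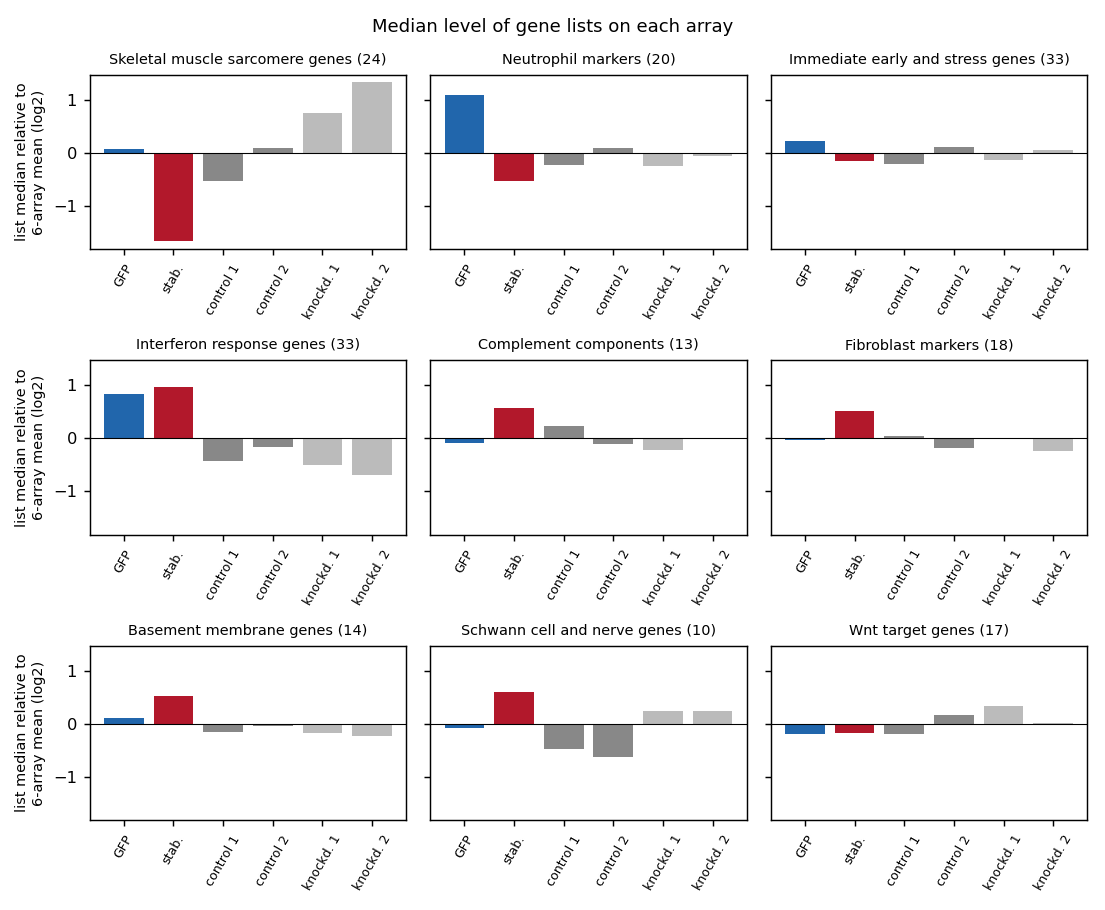
Median level of 9 gene lists on each of the 6 arrays, as the list median of log2 values relative to each gene's mean over the 6 arrays, with the number of measured genes in the panel titles. Bars are the GFP array (blue), the stabilized array (red), 2 tamoxifen controls (dark grey) and 2 knockdown wounds (light grey). Sarcomere genes are lowest in the stabilized wound (-1.67), neutrophil markers highest in the GFP wound (1.10), interferon response genes high in both adenovirus wounds (0.84 and 0.96), and Wnt targets alike in both (-0.18 and -0.17).

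Fibroblast and matrix genes lay on the higher side by smaller steps. The 6 lists were collagens, basement membrane, collagen processing, elastic fibres, matricellular proteins and small proteoglycans. Of their 77 measured genes, 64 lay above 0 (53.2% of all genes), with a median of 0.37 against 0.03 over all genes. Only 3 were 2-fold higher (2.12% of all genes) and 0 were 2-fold lower (3.39%), so the higher count was little above its share. The stabilized wound lay above the tamoxifen range in 52 of the 77 (32.8% of all genes) and the GFP wound in 28 (27.0% of all genes). The 3 genes past 2-fold were Fn1, fibronectin (12.03 against 13.14, tamoxifen wounds 10.79 to 12.15), the basement membrane linker Nid1 (11.68 against 12.70, tamoxifen wounds 11.39 to 11.77) and Pcolce2, an enhancer of procollagen processing (7.90 against 9.19, tamoxifen wounds 7.68 to 9.11). In all 3 the stabilized wound was the highest array. The second probe of Nid1 gave -0.35, the opposite sign, and those of Pcolce2 and Fn1 gave 0.49 and 0.65. The collagen I chains Col1a1 and Col1a2 differed by 0.70 and 0.49, less than a replicate pair of tamoxifen wounds (0.72 and 0.63). Col14a1 differed by 0.93 and the proteoglycans Lum and Prelp by 0.97 and 0.86, each more than either replicate pair. By list, the collagens had a median of 0.17, where the replicates differed by 0.28 and -0.45, and the small proteoglycans 0.38, where the replicates differed by 0.41 and -0.16. The steps for basement membrane (0.42), collagen processing (0.33), elastic fibre (0.37) and matricellular genes (0.42) were larger than the replicate differences of the same lists, which lay between -0.31 and 0.23.

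Among 18 fibroblast markers, 2 were 2-fold higher, 0 were 2-fold lower and the median was 0.44. Of the 18, 13 lay above 0 (53.2% of all genes) and 5 below, the lowest at -0.65. Dpp4, a surface peptidase of dermal fibroblasts, read 10.13 on the GFP and 11.39 on the stabilized array (tamoxifen wounds 9.89 to 10.83). The collagen receptor Ddr2 was 2.02-fold higher, Fap differed by 0.97, Cd248 by 0.85 and Prrx1, a mesenchymal transcription factor, by 0.84. The stabilized wound lay above the tamoxifen range in 14 of the 18 genes (32.8% of all genes) and the GFP wound in 3 (27.0%). Replicate tamoxifen wounds differed by -0.20 and -0.05 in the median of the list, less than the 0.44 here. Several of the highest genes of the whole comparison are also known from connective tissue. Has1, a hyaluronan synthase, read 9.09 and 11.66 (tamoxifen wounds 6.51 to 8.74), and both adenovirus wounds were above the rest. Scara5, a ferritin receptor, was 5.76-fold higher (8.83 against 11.35), Ebf2, a transcription factor of mesenchymal precursors, 3.46-fold (7.01 against 8.80), Islr 3.44-fold, Gdf10, a ligand of the TGF-β superfamily, 3.28-fold and Igfbp6, which binds IGF-II, 2.56-fold.

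Metalloproteinases and their inhibitors lay mostly on the higher side, while growth factor genes were mixed. Of 20 genes of the metalloproteinase list, 15 lay above 0 (53.2% of all genes), 2 were 2-fold higher and 1 was 2-fold lower. The median was 0.44, and the replicates differed by 0.01 and -0.05. The stabilized wound lay above the tamoxifen range in 16 of the 20 (32.8% of all genes) and the GFP wound in 8 (27.0%). Adamts1 was 2.82-fold higher (6.88 against 8.37) and the inhibitor Timp2 2.02-fold higher (12.22 against 13.24), while Adam8, a protease of leukocytes, was 2.11-fold lower (9.42 against 8.34). The collagenolytic pair Mmp2 and Mmp14 differed by 0.91 and 0.86. Tgfbr2, the type II TGF-β receptor, differed by 0.94, and 0 of 19 genes of that pathway were 2-fold apart (5.51% of all genes). Igf2 was 2.29-fold lower, but over the tamoxifen wounds it ranged from 10.77 to 12.65, wider than its difference of -1.19. Hbegf, an EGF receptor ligand of wound edge keratinocytes, was 2.49-fold higher, and Errfi1, a feedback inhibitor of that receptor, 3.44-fold higher (11.66 against 13.44, tamoxifen wounds 11.29 to 12.43).

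Nerve sheath genes were higher in the stabilized wound. Of 10 measured Schwann cell genes, 3 were 2-fold higher (2.12% of all genes) and 0 were 2-fold lower (3.39%). In all, 9 lay above 0 (53.2% of all genes) and the median was 0.69. Mbp, myelin basic protein, read 8.61 on the GFP and 10.62 on the stabilized array (tamoxifen wounds 7.51 to 10.00), Ngfr, the low-affinity neurotrophin receptor, 8.32 and 9.59 (6.83 to 8.71), and Sox10, the glial transcription factor, 7.36 and 8.56 (6.20 to 8.15). The stabilized wound was highest in all 3, although the tamoxifen wounds also spread widely. The other probes of Mbp gave 0.30 and 1.504, so the size depends on the probe. Ntrk2, a neurotrophin receptor, was 3.40-fold higher, and Pmp2, a myelin protein gene, was detected on the stabilized array and not on the GFP array.

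Epidermal genes changed in places. The antimicrobial and alarm genes had a median of -0.78 over 12 genes, with 5 of them 2-fold lower, among them the β-defensin Defb6 (11.66 against 9.63), Wfdc12 (13.82 against 12.36) and Pglyrp1 (9.77 against 8.38); Lcn2 and S100a9, counted under the neutrophils, are the other two. S100a7a was the highest at 0.95. Krt15, a keratin of basal and bulge cells, was 3.31-fold lower (11.37 against 9.64, tamoxifen wounds 11.26 to 12.67) and Krt77 3.15-fold lower. The wound keratin Krt17 differed by 0.27. Among 28 differentiation genes, 2 were 2-fold lower, Krt77 and Flg2, and the median was 0.31. The small proline-rich Sprr2e was 3.06-fold higher (11.34 against 12.96, tamoxifen wounds 7.73 to 11.57). Cell cycle genes moved together by little: 29 of 31 lay below 0 (46.7% of all genes) and 0 were 2-fold apart (5.51%). Their median was -0.24 (0.33 without the quantile step, against 0.58 over all genes), and replicate tamoxifen wounds were further apart (-0.52 and -0.61).

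Interferon response genes were high in both adenovirus wounds and differed little between them. Of 33 genes, 31 lay above the tamoxifen range on both arrays (14.8% of all genes did), and 1 was 2-fold apart, the exonuclease gene Isg20 (9.46 against 7.85). Their median difference was 0.11. Rsad2, viperin, read 12.79 and 12.13 against 10.37 to 11.70 in the tamoxifen wounds, and Irgm2, an interferon-inducible GTPase, 11.19 and 11.93 against 10.11 to 10.55. Virus, age and allele all separate the adenovirus from the tamoxifen wounds and cannot be told apart.

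The 2-fold genes were not all set apart by the same array. Of the 195 higher genes, 66 had the GFP wound below and the stabilized wound above the tamoxifen range (5.32% of all genes), 58 had only the stabilized wound outside it and above (12.6%), and 35 had only the GFP wound outside it and below (9.7%). Of the 312 lower genes, 116 had GFP above and stabilized below (4.21% of all genes), 114 had only the stabilized wound below (10.2%) and 49 only the GFP wound above (7.97%). These genes were counted for a large difference between both arrays, which by itself moves the arrays to opposite sides. Muscle genes belong mostly to the kind in which the stabilized wound alone stood apart: it lay below the tamoxifen range in 41 of the 47 genes (29.2% of all genes), and the GFP wound lay above it in 3 (27.0% of all genes). The stabilized wound was set furthest above the other 5 arrays for Susd1 (6.22 on the GFP and 7.98 on the stabilized array, tamoxifen wounds 5.89 to 6.23), Ildr2 (7.73 and 9.24), the natriuretic peptide gene Nppb (6.88 and 8.34), the immediate early gene Arc (6.90 and 8.40) and the collagen gene Col28a1 (6.76 and 8.14). In Nppb, Arc and Col28a1 the GFP wound was above the tamoxifen wounds too. On the low side it was set furthest apart for, among others, the aldehyde dehydrogenase Aldh3a1 (8.69 and 6.46, tamoxifen wounds 8.31 to 9.25) and Oas1f (8.81 and 6.28, 8.21 to 9.53). The GFP wound was set furthest below the others for, among others, Adh1, alcohol dehydrogenase (7.25 and 9.43, tamoxifen wounds 10.50 to 11.61), Selenop, the selenium transport protein (11.67 and 12.79, 12.83 to 13.26), and Hpgd, which inactivates prostaglandins (6.71 and 7.90, 8.55 to 9.60). In these 3 the stabilized wound was also below the tamoxifen wounds.

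The 25 furthest genes in each direction also held members outside the groups above. On the higher side they included the detoxifying enzymes Ces2g (8.46 against 10.42, 3.90-fold) and Ugt1a6b (6.39 against 8.35, 3.89-fold), and the death receptor Tnfrsf10b (6.51 against 8.20, 3.23-fold). Plekhb1 was 3.67-fold higher, Psors1c2 3.56-fold, Sfxn3 3.27-fold and Islr2 3.23-fold. On the lower side they included Mcemp1, a membrane protein gene of mast cells and other myeloid cells (10.36 against 7.54, 7.05-fold), Mrgpra2b (11.95 against 9.08, 7.28-fold, and -0.77 by its second probe) and G0s2, an inhibitor of triglyceride lipase (12.55 against 9.92, 6.19-fold). In all 3 of these the GFP wound was above and the stabilized wound below every tamoxifen wound.

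The largest differences on either side came from single probes. Fcer1g, the signalling chain shared by several Fc receptors, read 7.14 in the GFP wound, 13.21 in the stabilized wound and 13.57 to 14.10 in the tamoxifen wounds. The GFP wound was the array that departed, by 66.9-fold, and the gene has 1 probe here. Ifi205, an interferon-inducible gene of the p200 family, read 6.51, 12.01 and 9.73 to 11.38, again with GFP apart. Its other probes were not detected on the GFP array and differed by 4.12 and 0.88. The mast cell list, to which Fcer1g belongs, had a median of 0.64 over 11 genes, and 0.59 without it.

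Fcer1g and Ifi205 lie on chromosome 1, with 71 protein-coding genes between them in the RefSeq order. The stretch was chosen for the values at its ends, so these are left out of what follows. Of the genes between them 32 were measured, 3 were 2-fold higher (2.12% of all genes were), 0 were 2-fold lower, and the median was 0.05. The 3 were Dusp23 (7.77 against 8.84), Ifi213 (7.60 against 9.10) and Ifi207 (11.07 against 12.53), named because they make up the count. In Dusp23 both wounds lay below the tamoxifen range, the GFP wound further, and in Ifi213 and Ifi207 the GFP wound lay within it and the stabilized wound above. GFP was the lowest array in 9 of the 32 (21.3% of all genes) and the highest in 7. It lay below the tamoxifen range in 14 (29.8% of all genes) and above it in 10 (27.0% of all genes), as in Ifi202b (9.71 against 6.62 to 8.19, named after its value was seen). Usf1 gave -0.20 by its brightest probe, and 1.94 by another that the GFP array did not detect.

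**Figure D4:**
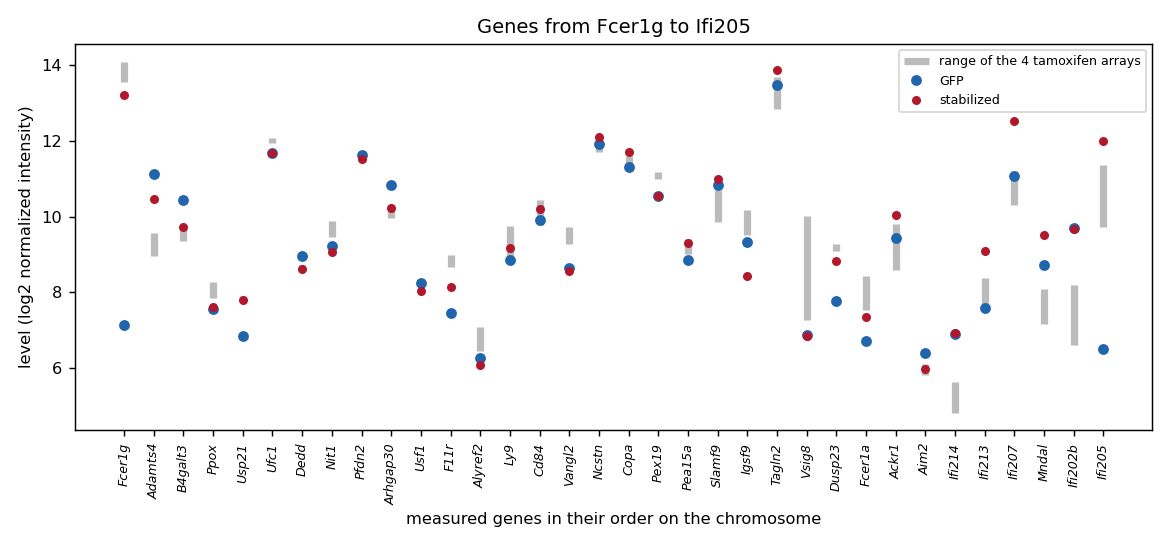
Level (log2 normalized intensity, vertical axis) of the 34 measured genes from Fcer1g to Ifi205 in their order on chromosome 1, on the GFP array (blue), the stabilized array (red) and as the range of the 4 tamoxifen arrays (grey bars). GFP is far below the rest at both ends, at 7.14 for Fcer1g and 6.51 for Ifi205, and at the genes between it lies below, within or above the tamoxifen range.

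On the lower side, 9 of the 10 largest differences were read by probes that share one profile over the 6 arrays. In all, 68 probes had a correlation above 0.97 with the probe of Zxda and were also at least 2-fold lower in the stabilized wound. All 68 were highest on the GFP array, then on the tamoxifen controls, then on the knockdown arrays, and lowest on the stabilized array. That order is the one of the Zxda probe, so the choice by correlation largely sets it. Only 22 of the 68 have 1 annotated gene. The zinc finger gene Zxda read 12.76 and 7.30 (44.1-fold), Erich5 13.66 and 8.62 (32.8-fold), Prf1, the pore protein of cytotoxic cells, 12.70 and 7.85 (28.7-fold), and Rhbdl2 12.99 and 8.79 (18.4-fold). Srr, serine racemase, has 3 detected probes. Those with the shared profile gave -3.83 and -3.93 and the remaining one -0.11. Ifngr2, an interferon-γ receptor chain, is read by a probe just outside this set, with a correlation of 0.961. It gave -3.34 by that probe, and -0.06 and -0.14 by the others. In total 10 genes were read by a probe of the shared profile. All 10 were 2-fold lower, which the choice of these probes fixed in advance. Without these probes the count of lower genes was 302. What the profile stems from was not tested.

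Other probes of the same gene mostly ran the same way. Of the 195 higher genes, 53 had a second detected probe, which had the same sign in 45 (84.9%) and was 2-fold apart too in 24. Of the 312 lower genes, 83 had one, with the same sign in 75 (90.4%) and 2-fold apart in 56. Over all 2921 genes with a second probe the sign was shared by 69.7%. Of the genes 2-fold lower in the sarcomere, calcium and energy lists, 10 had a second probe, and it was 2-fold lower as well in all 10. Among the 2-fold lower neutrophil markers this was so in 4 of 4. Over all measured members with a second probe, the sign was shared in 13 of 14 genes of these muscle lists and in 5 of 7 neutrophil markers. Probes of a gene share the RNA and the array, so they are no replicates of the condition. Mb gave -2.59 and -2.55, Tcap -2.42 and -2.47, Csf3r -1.99 and -2.29, and Trem1 -2.23 and -1.63. The second probe also gave -2.18 for Tnf, -2.62 for Acod1, 1.76 for Adh1, 2.08 for Ebf2 and 1.81 for C1s1. For some genes the second probe gave a much smaller size: Aldh1a3, a retinaldehyde dehydrogenase, gave 1.76 and 0.27, Islr 1.78 and 0.32, Slc7a11 -2.64 and -1.19, Mgl2 1.55 and 0.85, and Selenop 1.12 and 0.33. Ccl11 gave 1.09 and 2.98.

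In 8 higher and 8 lower genes the second probe had the opposite sign. Kif23, a mitotic kinesin gene, was 4.35-fold higher by its brightest probe (12.60 against 14.72) and gave -0.27 and -0.37 by the others, which read between 7.38 and 8.07 on these arrays. Nrap, a gene of striated muscle, gave 1.31 by its brightest probe and -1.42 by the other, which is the direction of the remaining muscle genes. Tpm2, a tropomyosin of muscle, gave -1.49 and 0.06, Siglech, a lectin gene of plasmacytoid dendritic cells, -1.76 and 0.17, Invs -2.03 and 0.09, and Steap3 1.35 and -0.57. For these genes the direction depends on which probe is read.

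**Figure D5:**
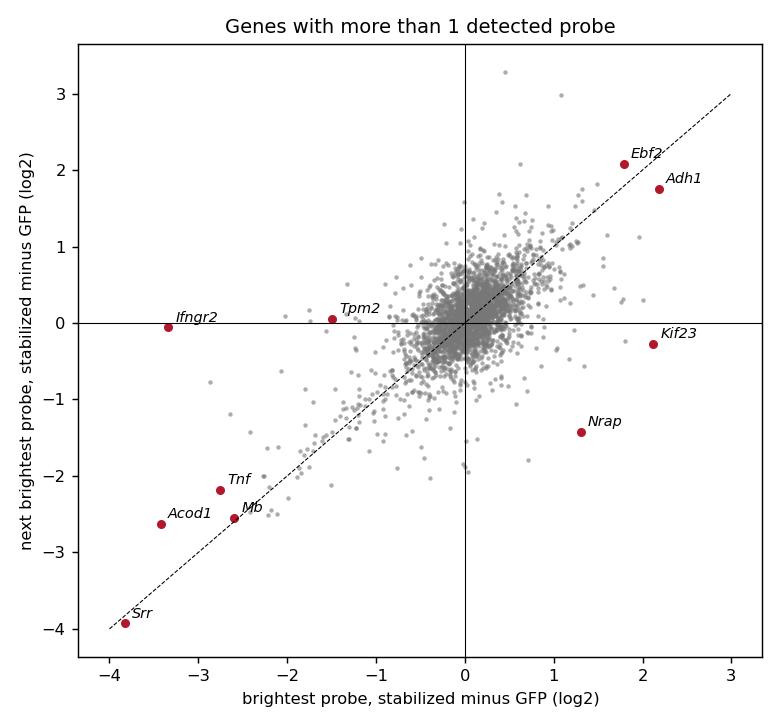
Difference (stabilized minus GFP, log2) by the next brightest probe (vertical axis) against the brightest probe (horizontal axis) for 2921 genes with more than 1 detected probe, 1 point a gene, with the line of equal values dashed. Tnf, Acod1, Mb and Ebf2 lie near the line, while Kif23 and Nrap lie on opposite sides of 0.

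Some genes were detected on only 1 of the arrays. On the stabilized array alone 651 genes were detected, and 34 of them stood at least 2-fold above the lowest detected level of the GFP array. On the GFP array alone 319 were detected, and 69 stood that far above the lowest detected level of the stabilized array. Inmt, a methyltransferase gene, was at least 8.76-fold higher in the stabilized wound and Efhd1 at least 5.78-fold. Nos2, the inducible nitric oxide synthase, was at least 3.79-fold higher (8.08 on the stabilized array, tamoxifen wounds 5.13 to 6.13). Mybpc2, the fast myosin-binding protein C, was at least 9.41-fold lower. The 5 next largest, St6galnac3, Syne2, Hykk, Ern2 and Sftpd, were at least 5.23-fold to 8.47-fold lower, and their probes had a correlation of 0.943 to 0.991 with that of Zxda, Hykk within the shared profile. Muscle genes that only the GFP array detected were Ckmt2, mitochondrial creatine kinase (at least 4.00-fold), Mylk2 (at least 2.23-fold), Jph2 (at least 2.10-fold) and Casq1 (at least 2.08-fold lower), named as the members of the muscle lists past 2-fold. No member of these lists was detected on the stabilized array alone.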

How the data were processed

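The authors deposited a probe table of single-colour Illumina bead arrays that gives, per the file headers, each probe's intensity before normalization and its detection p-value, and a second deposited table of log2 values. The submitters' processing notes name R 2.14 and limma, and settings are not given in the sources used here. The log2 values kept the rank of the intensities (Spearman correlation 1) and lay within 0.101 of the values computed from them here.

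Intensities were corrected with limma 3.58.1 in R 4.3.3 (neqc with the detection p-values, offset 16) and quantile-normalized over the 6 arrays, which removes a shift shared by most genes. The offset shrinks differences of dim probes. Of 45281 probes, 34885 had 1 annotated gene, 18 several, and 10378 were not listed, which are unnamed here. Symbols of 34807 probes were updated through Entrez numbers against RefSeq (GRCm38.p6). Among the probes detected on both arrays, the brightest by its mean over 6 arrays stood for the gene. A gene not detected on an array was given a bound against the lowest detected level there. No test was made with 1 array a side, whose number limits the precision. Slide and scan day are not given in the sources used here.

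Named genes were Ctnnb1, the 25 furthest in each direction, up to 6 members of each of 52 lists, all members of the Wnt target, catenin and sex-linked lists, and the genes set apart by 1 array, by disagreeing probes or by detection on 1 array. Members and lists were chosen with earlier results of these data known. Normalization was tried on simulated data, a noisy copy of the GFP array with equal numbers of raised and lowered probes. Those arrays had nearly the same distribution, so the trial cannot address the unequal intensities of the real pair. Alternatives changed the scaling, background, offset, detection filter and choice of probe. Figures and counts were made with Python 3.11.15.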

Additional observations from a re-analysis of the deposited data

How the results depend on the processing

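Among the 507 genes 2-fold apart, every gene that an alternative still measured kept its sign, except that Nrap turned from 1.31 to -0.0592 with the mean of all its detected probes. Genes chosen for a large difference seldom turn sign, so this says little about its size. Of the 507, 346 stayed 2-fold apart without the quantile step, 287 without background correction and 400 with an offset of 50. Under each of the other alternatives 462 or more did. Without the quantile step the counts were 1270 higher and 151 lower, without background correction 87 and 200, with detection on at least 1 array 365 and 515, and with no detection filter 388 and 565; the others lay within 1.5 times of 195 and 312. Without the quantile step the medians were 0.59 for Wnt targets, -0.85 for muscle calcium handling, -0.0031 for myogenic regulators, -1.22 for muscle energy, -0.34 for antimicrobial genes, -1.202 for neutrophil markers, 1.05 for monocyte chemokines, 1.17 for complement, 1.14 for mast cell genes and 1.15 for Schwann cell genes, all against 0.58 over all genes. The sign of the median turned in 15 of 51 lists, and relative to the median of all genes in 3. With detection on at least 1 array myogenic regulators were at -1.29. With no filter antimicrobial genes were at -0.52, neutrophil markers at -0.77, mast cell genes at 0.32 and Schwann cell genes at 0.47. Mast cell and Schwann cell genes were at 0.42 and 0.40 without background correction and at 0.50 and 0.56 with an offset of 50. Leaving out the probes of shared profile was chosen after seeing the data. No paired analysis was possible because each adenovirus group has 1 array, so no replicate could be left out either. Signal near background limits the dim genes.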

Other observations

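Vessel genes lay slightly to the higher side: of 30 endothelial genes, 22 were above 0 (53.2% of all genes) and 1 was 2-fold higher (2.12%). That gene was the lymphatic growth factor Vegfd (8.86 on the GFP and 10.28 on the stabilized array), with Vwf and Nrp1 at 0.93 and 0.88. Sebaceous genes had a median of -0.31 over 9 genes, and 3 were 2-fold lower, the lipid genes Cidea (3.23-fold), Elovl6 (3.13-fold) and Scd1 (2.52-fold). Fa2h, a fatty acid hydroxylase of skin, was 3.53-fold lower. Hair genes had a median of -0.57, but replicate tamoxifen controls differed by 1.98 in that list and replicate knockdown wounds by -1.76. Erythrocyte genes, a measure of blood in the sample, had a median of -0.80 over 6 genes, and replicate controls differed by -1.17. Ankrd37, a hypoxia-inducible gene, was 3.99-fold lower, while 22 of the 23 genes of the hypoxia list were less than 2-fold apart.

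A few probes set both adenovirus wounds far from all tamoxifen wounds on the same side. Ccn5 read 8.17 and 8.40 on the adenovirus arrays and 11.33 to 11.60 on the tamoxifen arrays, and the mast cell tryptase gene Tpsab1 read 8.53 and 9.30 against 4.92 to 5.38. The second probe of Kif23 read 7.65 and 7.38 against 9.10 to 10.29, and the second probe of Cxcl2 10.73 and 8.21 against 12.61 to 13.14. These probes were picked after their values were seen.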
